A study of Gossypium hirsutum with 2 samples.

Results

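The NAC and WRKY transcription factor genes of Upland cotton (Gossypium hirsutum) were followed in leaves of field plants under drought and under irrigation. A probe set (a group of short probes that reads one transcript) was taken when the platform annotation gave it a single cotton gene with the alias NAC plus a number, WRKY, or WRKY plus a number. This gave 12 probe sets of 8 genes. The array holds 23977 plant probe sets, 697 of them assigned to a single gene (520 genes in all), and 246 of those genes have a name other than a locus number. The 8 genes are NAC2, NAC4, NAC6, NAC7, NAC10 and the gene listed as both NAC5 and NAC8 (9 probe sets), and WRKY15 and the gene listed as WRKY24 and WRKY71 (3 probe sets). The gene table used for the names lists 20 loci with a NAC alias and 85 with a WRKY alias, of which 6 and 2 are read here.

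The drought sample is leaf RNA of the cultivar Acala 1517-99 from plots that received no furrow irrigation, and the well-watered sample is leaf RNA of the same cultivar from irrigated plots. Both come from the third topmost leaf of plants labelled 9 weeks old, taken 9 days after water was withheld in the drought plots, and the labels speak of 3 plots as replicates, each of 8 plants. The labelled age exceeds the time between planting and harvest in the same labels. One Affymetrix cotton array represents each condition, and the labels do not say whether RNA of the plots was pooled. No p-value can therefore be given, and every difference describes these 2 arrays. All plants were of a single cultivar that the study's title calls drought tolerant, so nothing here compares cultivars.

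NAC and WRKY proteins are large plant families of DNA-binding regulators. NAC proteins share an N-terminal DNA-binding domain named after the genes NAM, ATAF and CUC, and members are known in many plants for roles in drought and salt responses, leaf senescence, and the making of secondary cell walls. WRKY proteins bind the W-box element in promoters and are best known for pathogen defence, senescence and abiotic stress, and MAP kinases are known to phosphorylate some of them. Many stress-related members of both families are themselves controlled at the level of their transcripts, which is what the array reads.

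Values are MAS5 signals, the linear intensities that Affymetrix software gives for a probe set, and differences are log2 of the drought signal minus log2 of the well-watered signal. Both arrays had a mean signal of 250.1 once the top and bottom 2% were trimmed. Background was judged from 51 dim reporter controls, probe sets for genes foreign to cotton. Their 95th percentile, used below as the reporter limit, was 144 on the drought array and 75.7 on the well-watered array. Their median was 15.6 on the drought array and 11.4 on the well-watered array. A signal under the limit can therefore still exceed most of these controls, and the limit is stricter on the drought array. The ratio of 3-prime to 5-prime signal, which follows RNA quality, was 4.09 for the actin control on the drought array and 14.1 on the well-watered array. For ss1 it was 1.30 on the drought array and 1.83 on the well-watered array, and for ubq11 it was 10.2 on the drought array and 5.80 on the well-watered array, so 2 of the 3 controls had the higher ratio on the well-watered array. The part of RNA quality in the differences below was not tested. The leaf marker RCA1, which encodes rubisco activase, gave 20148 in drought leaves and 16617 in well-watered leaves, and it was the only match among the leaf mesophyll markers searched by alias. In leaf RNA of many cells, fewer cells of a type and less RNA per cell cannot be told apart.

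Signals of the 12 probe sets ran from 4.0 to 1210 in drought leaves and from 6.5 to 1204 in well-watered leaves. Both signals exceeded the reporter limit of their array for 6 of them, which read NAC2 (both probe sets), NAC4, NAC7, WRKY15 and WRKY24/WRKY71. These 6 are also the ones that reached the measurable minimum, a mean signal of 72.3, the median over plant probe sets. For NAC10 and a further NAC7 probe set the well-watered signal alone exceeded its limit, which is the lower of the 2 limits. NAC10 did so barely (77.7 against 75.7). The other 4 probe sets lay under the limit on both arrays.

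**Figure D1:**
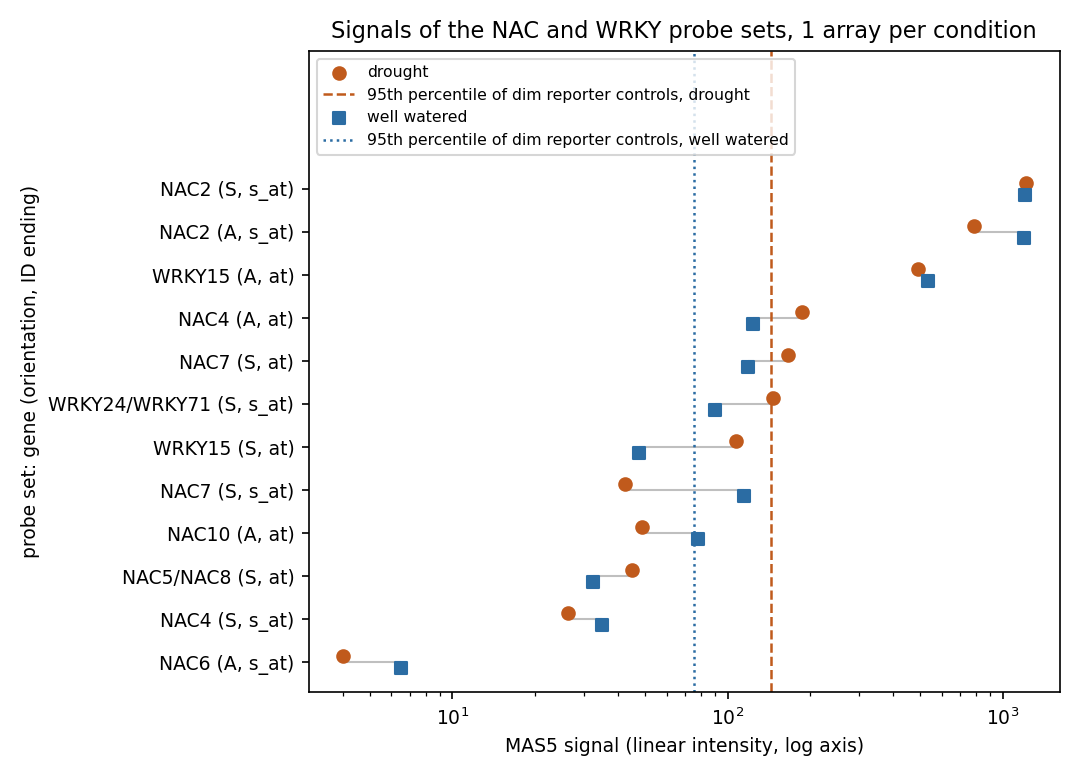
MAS5 signal (log axis) of each NAC and WRKY probe set in drought leaves (circles) and well-watered leaves (squares), 1 array each, ordered by mean signal and labelled with gene, orientation and ID ending. Dashed and dotted lines mark the reporter limits, 144 on the drought array and 75.7 on the well-watered array, and 6 probe sets lie above them on both arrays.

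NAC2 was read far above the reporter limits by both of its probe sets. On the probe set of sense orientation (S in its ID, Ghi.3264.1.S1_s_at) it measured 1210 in drought leaves and 1204 in well-watered leaves, a log2 difference of 0.01. The sign of this near-zero value turned negative with each array centred on its median (-0.04) and against the spike-in controls (-0.24). On the probe set of antisense orientation (A in its ID, Ghi.3264.2.A1_s_at) it measured 783 in drought leaves and 1191 in well-watered leaves, a log2 difference of -0.60. The log2 differences of the pair lie 0.61 apart. Among the 4796 plant probe sets of the brightest of 5 equal signal classes, 2.98% had a lower difference than the antisense reading, and the SD of differences in that class was 0.30. The NAC2 gene (LOC107962533) was level on the sense probe set and at 0.658 of the well-watered signal on the antisense probe set. The annotation does not say which of them reads the coding strand. They also come from different source sequences, and both IDs end in _s_at, which marks probes that can match more than 1 transcript.

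NAC4 (LOC107916546) was higher in drought leaves on its brighter probe set. That probe set, of antisense orientation (Ghi.7907.2.A1_at), measured 186 in drought leaves and 124 in well-watered leaves, a log2 difference of 0.59. In its signal class, 92.3% of 4795 probe sets had a lower difference. The second probe set, of sense orientation (Ghi.7907.1.S1_s_at), measured 26.3 in drought leaves and 34.9 in well-watered leaves (-0.41), and both values lie under the reporter limits. The reading above background, on the antisense probe set, was thus higher in drought leaves by less than 2-fold. For NAC4 too the annotation does not say which probe set reads the coding strand.

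NAC7 (LOC107909534) gave opposite answers on probe sets of the same orientation. The probe set GhiAffx.20354.1.S1_at measured 165 in drought leaves and 119 in well-watered leaves, a log2 difference of 0.48. The probe set Ghi.3574.1.S1_s_at measured 42.5 in drought leaves and 114 in well-watered leaves, a log2 difference of -1.43, the largest deficit of the 12. Its drought signal is under the reporter limit of 144, so the size of that deficit is uncertain. A further locus (LOC107898987) also bears the alias NAC7, and an ID ending in _s_at marks probes that can match more than one transcript.

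The remaining NAC genes were dim. NAC10 (LOC107909166) measured 49.0 in drought leaves and 77.7 in well-watered leaves on an antisense probe set (log2 difference -0.67). The gene listed as NAC5 and NAC8 (LOC107892421) measured 44.8 in drought leaves and 32.3 in well-watered leaves (0.47). NAC6 (LOC107893812) was at 4.0 in drought leaves and 6.5 in well-watered leaves (-0.70). For NAC6 and NAC5/NAC8 all signals were under the reporter limits, so their differences cannot be told from background. The gene table also gives the alias NAC10 to LOC107918659 and NAC8 to LOC107961891. The gene listed as NACL2 and nst3 (LOC107947214), a relative of the secondary-wall regulators of Arabidopsis by its name, falls just outside the alias rule and was looked at after its values were seen. Its 3 probe sets were below the measurable minimum as well and gave -0.43, -0.02 and 0.99.

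Among the WRKY genes, the locus with the aliases WRKY, WRKY24 and WRKY71 (LOC107906829) had the largest excess of the measurable probe sets. It measured 146 in drought leaves and 89.7 in well-watered leaves on its single probe set (Ghi.9192.1.S1_s_at), a ratio of 1.62 and a log2 difference of 0.70. In its signal class 95.1% of probe sets had a lower difference. The drought signal of 145.7 is barely above the reporter limit of 143.8 on that array. The alias WRKY24 belongs to 2 other loci in the gene table, so the name alone does not settle the copy. Its probe set ID also ends in _s_at.

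WRKY15 (LOC107931629), a gene whose name in cotton is tied to pathogen defence, was read in both orientations from the same source sequence. The antisense probe set (Ghi.3815.1.A1_at) measured 493 in drought leaves and 534 in well-watered leaves, a log2 difference of -0.12, well above the reporter limits on both arrays. The sense probe set (Ghi.3815.1.S1_at) measured 107 in drought leaves and 47.5 in well-watered leaves, a ratio of 2.25 and a log2 difference of 1.17. This was the largest excess of the 12, but both of its signals lie under the reporter limits, and it stayed under 2-fold against the spike-in controls (0.92) and with a pseudocount (0.85). The reading of WRKY15 that is clear of background, on the antisense probe set, was close to level. The annotation does not say which WRKY15 probe set reads the coding strand, so the change of the WRKY15 transcript stays unsettled.

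**Figure D2:**
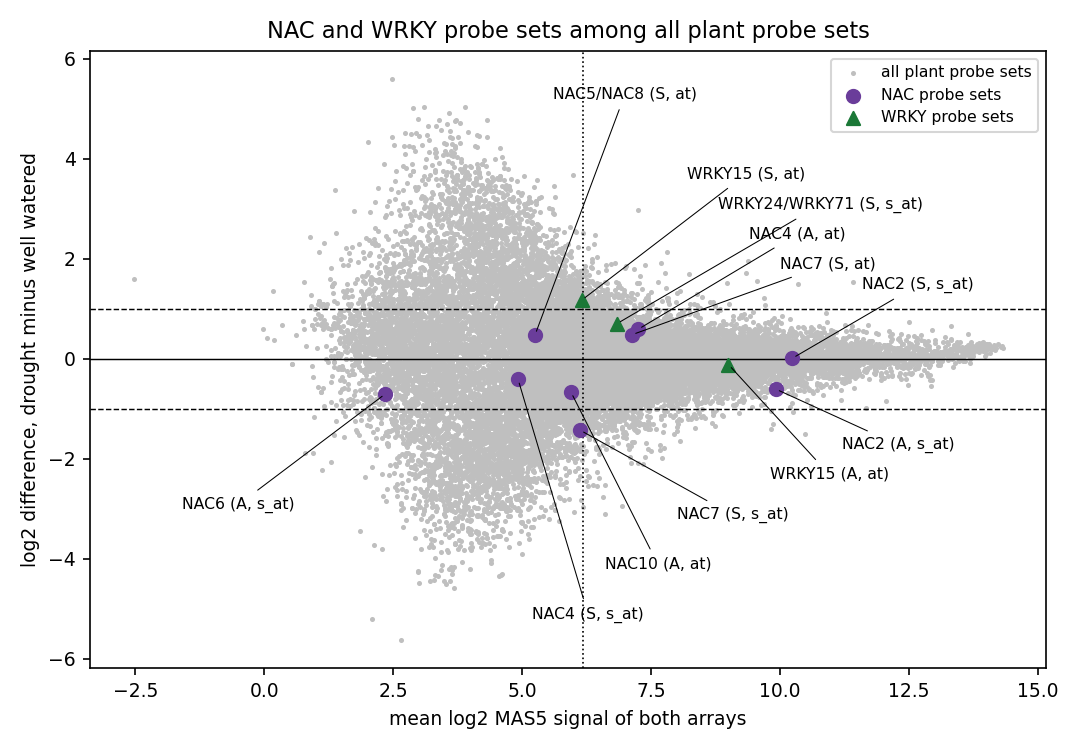
Log2 difference (drought minus well watered) against mean log2 signal of both arrays for all 23977 plant probe sets (grey), with NAC probe sets as circles and WRKY probe sets as triangles; dashed lines mark 2-fold and the dotted line the measurable minimum. The 6 probe sets right of the dotted line lie within 2-fold, and the spread of the grey points widens toward dim signals.

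Of the 12 probe sets, 6 were higher and 6 lower in drought leaves, where 51.7% of all plant probe sets were higher (5 of 12 with median centring or against the spike-in controls, where NAC2 turns). One was at least 2-fold higher (WRKY15, sense) and 1 at least 2-fold lower (NAC7, Ghi.3574.1.S1_s_at), against 12.5% higher and 11.8% lower over all plant probe sets, so the members lie near the background. Their median was -0.05, and that of all plant probe sets was 0.02. Of the 6 measurable probe sets, 4 were higher and 2 lower, with 0 past 2-fold, while of 11989 measurable plant probe sets 49.6% were higher, 1.82% at least 2-fold higher and 2.56% at least 2-fold lower. With median centring or against the spike-ins 3 of the 6 were higher. The shares of all plant probe sets that were higher on those scales were not computed. Member counts on those scales therefore cannot be set against a background. Both 2-fold members came from the 6 dimmer probe sets, of which 2 were higher and 4 lower, and among all plant probe sets below the measurable minimum 53.8% were higher, 23.2% at least 2-fold higher and 21.1% at least 2-fold lower. The measurable members had a median of 0.24, beside -0.01 over all measurable plant probe sets. The measurable members are spread from -0.60 for NAC2 (antisense) to 0.70 for WRKY24/WRKY71.

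Of the 9 NAC probe sets, 4 were higher (3 with median centring or against the spike-ins) and 5 lower, with a median of -0.41. Of the 3 WRKY probe sets, 2 were higher and 1 lower on every scaling, with a median of 0.70. A difference between the families was not tested. By orientation, 5 of 7 sense probe sets were higher (4 with median centring or against the spike-ins; median 0.47), and 1 of 5 antisense probe sets was higher (median -0.60). That last contrast rests on the genes that happen to have each kind of probe set, and 3 genes are counted on both sides. The shares of all sense and all antisense plant probe sets that were higher were not computed. The counts by orientation therefore cannot be set against a background, and an effect of orientation was not tested. They also include dim readings, since the sense probe sets of NAC4, NAC5/NAC8 and WRKY15 lie under the reporter limits on both arrays. The same holds for the antisense probe set of NAC6.

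**Figure D3:**
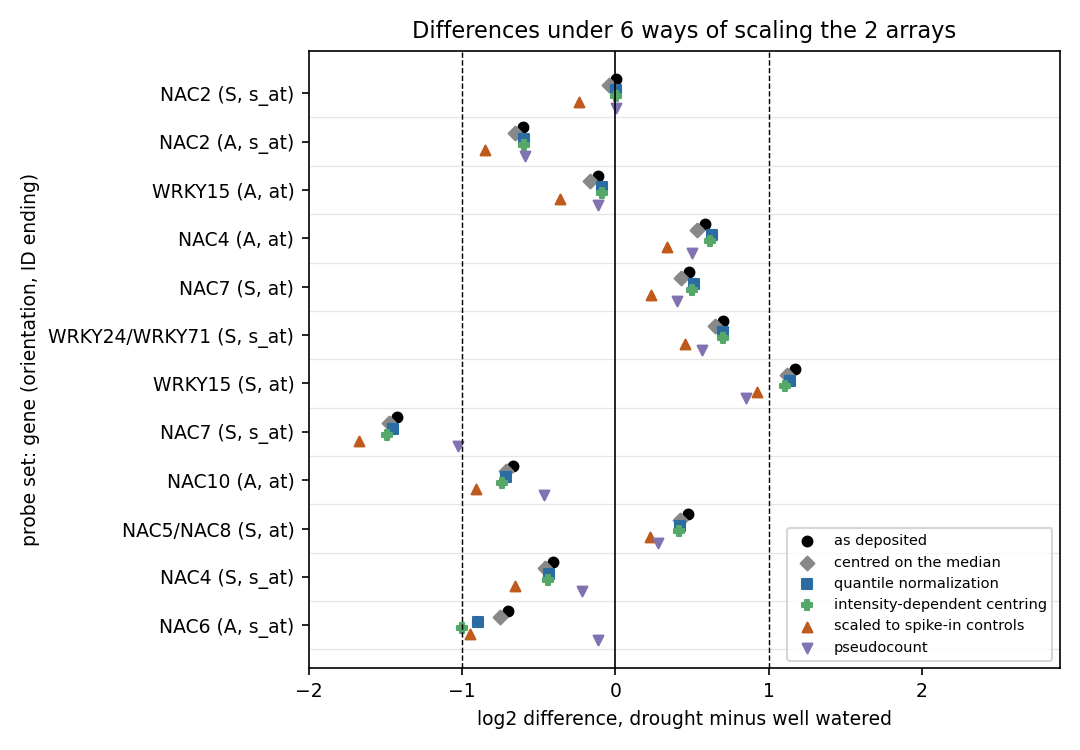
Log2 difference (drought minus well watered) of each NAC and WRKY probe set under 6 ways of putting the arrays on a common scale, 1 marker per way; dashed lines mark 2-fold. The sign is the same under all 6 for 11 of the 12 probe sets, the exception being the sense probe set of NAC2, and the spike-in scale lowers every value by 0.25.

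Scaling moved sizes more than directions. Against the 27 hybridisation spike-in controls every value was lower by 0.25, which also lowered the median of all plant probe sets to -0.22. On that scale WRKY24/WRKY71 stood at 0.45, NAC4 (antisense) at 0.34 and the measurable NAC7 probe set at 0.23, all still positive, while NAC2 stood at -0.24 and -0.85 and the antisense WRKY15 reading at -0.36. For 11 of the 12 probe sets the sign was the same as deposited under median centring, quantile normalization, intensity-dependent centring, the spike-in scale and a pseudocount.

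With no replicate arrays, probe sets of one gene are the only repeated readings. The 4 genes with a pair of probe sets were NAC2, NAC4, NAC7 and WRKY15, and with the signals as deposited the pair differed in sign in all 4 (in 3 with median centring or against the spike-ins, where both NAC2 readings were negative). The gaps were 0.61 for NAC2, 0.99 for NAC4, 1.29 for WRKY15 and 1.91 for NAC7. Such disagreement is common on these arrays. Of 122 genes with at least 2 probe sets, the brightest 2 had the same sign in 61, and gaps at least as large as that of NAC7 were found in 20. When both were measurable, as for NAC2, the median gap of 60 genes was 0.25 and the SD per probe set 0.43, against an SD of 1.31 in the 62 genes where they were not both measurable. The differences of 0.48 to 0.70 for NAC7, NAC4 and WRKY24/WRKY71 and that of -0.60 for NAC2 (antisense) exceed the SD per probe set of measurable pairs as deposited, each by less than 2 times. NAC7 was under that SD with median centring (0.43, against an SD of 0.434), the pseudocount (0.40) and the spike-ins (0.23), and NAC4 against the spike-ins (0.34). That spread includes any real difference between transcripts of a gene.

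Orientation was examined over the whole array because of the WRKY15 pair. In 2049 cases the ID marks an A and an S probe set of the same numbered sequence. Their log2 differences had the same sign in 49.9% of pairs and a Pearson correlation of 0.00 across pairs, which share both arrays and are not independent replicates. In the 307 pairs with both probe sets measurable the same sign was seen in 51.1%, with a correlation of 0.04. The gap of WRKY15 was matched or exceeded in 770 of the 2049 pairs, and in 391 of the 1039 pairs in which, as here, a single probe set was measurable. A gap like that of WRKY15 was thus common, and across the array a reading in one orientation said little of the reading in the other.

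**Figure D4:**
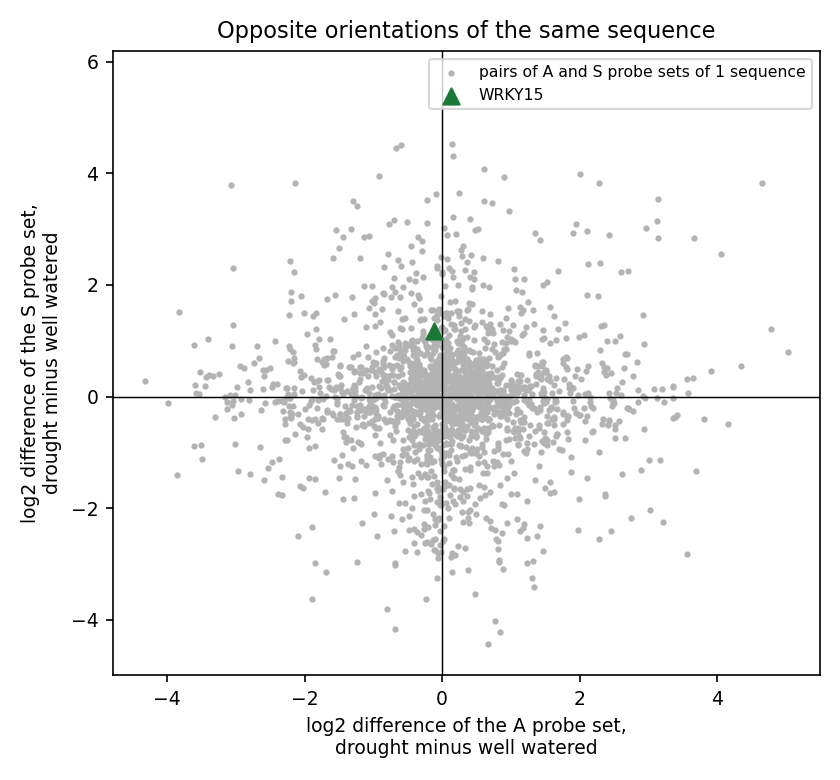
Log2 difference (drought minus well watered) of the S probe set against that of the A probe set for 2049 pairs of the same numbered sequence (grey), with WRKY15 as a triangle at -0.12 and 1.17. The points form a cross along the axes with no diagonal trend (r = 0.00).

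Genes that work around these factors were taken from lists matched by alias. Of 11 probe sets of the MAP kinase cascade, which acts upstream of some WRKY proteins, 5 were higher and 6 lower, 2 at least 2-fold higher and 2 at least 2-fold lower (12.5% and 11.8% over all plant probe sets), with a median of -0.13. Against the spike-ins 5 probe sets were again higher. The 11 probe sets read only 5 genes, and several of them read MPK3. The measurable genes with the largest differences were MPK3 (175 in drought leaves and 84.7 in well-watered leaves, 1.04), MPK23 (69.0 in drought leaves and 107 in well-watered leaves, -0.63), MPK14 (0.46) and MAPKKK (0.43). The brightest MPK3 probe set was under 2-fold with median centring (0.99), the pseudocount (0.86) and against the spike-ins (0.80). A measurable antisense probe set of MAPKKK gave -1.28, and the dimmer probe sets of MPK3 ran from -1.08 to 1.39. Of 25 probe sets of other transcription factors, 10 were higher (7 against the spike-ins) and 15 lower, with 5 past 2-fold in each direction, all of them below the measurable minimum, where 23.2% of plant probe sets were at least 2-fold higher and 21.1% at least 2-fold lower. Over all plant probe sets these shares were 12.5% and 11.8%. Their median was -0.06, close to the -0.05 of the NAC and WRKY probe sets. The measurable ones with the largest differences were HOX3, a homeodomain gene (-0.64), GHMYB36 of the MYB family (0.43), CBF15/DBP2 (-0.36) and ARF1 (0.24), an alias shared by auxin response factors and ADP-ribosylation factors. The drought signals of HOX3 (66.8) and GHMYB36 (124) were also under the reporter limit. Of 6 drought response probe sets, 3 were higher (0 against the spike-ins) and 3 lower. The 3 higher values ran from 0.07 to 0.23, and the spike-in scale lowers every value by 0.25. For none of these lists was the share of all plant probe sets higher on the spike-in scale computed. The 2 that were at least 2-fold lower are dim GST probe sets (-3.99 and -2.68) of a single locus, whose measurable probe set gave -0.12. The measurable ones were Lea14-A, a late embryogenesis abundant protein gene (0.22), and GST probe sets of 2 loci (0.07 and -0.12).

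Genes with the difference nearest to that of each member, over 2 arrays and among 148 other named measurable genes, were CBL1 (0.69) and FLA13 (0.77) for WRKY24/WRKY71, AnnGh1 (0.54) and CBL3 (0.51) for NAC4, and BNLGHi8377 (0.48) and GalT1 (0.47) for NAC7. For NAC2 (sense) they were FLA12 (0.01) and ERF3 (-0.0043), and for WRKY15 (antisense) f15 and GST (both -0.12). The same GalT1 and BNLGHi8377 were nearest to NAC5/NAC8, and XTH1 (-0.68) and HOX3 to both NAC10 and NAC6. A likeness over 2 arrays is no more than a similar ratio. CBL1 (99.3 in drought leaves and 61.4 in well-watered leaves) and BNLGHi8377 (98.1 in drought leaves and 70.3 in well-watered leaves) lie under the reporter limits on both arrays, and FLA13 and HOX3 lie under the limit in drought leaves (134 and 66.8), so these matches are imprecise.

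Of the 3 measurable trichome and fibre markers, E6 (-1.23) and HOX3 (-0.64) were lower and GHTTG1 (0.39) was higher in drought leaves. The marker EXPA1 gave 0.52 at signals under both reporter limits (36.7 in drought leaves and 25.6 in well-watered leaves), and the summed signal of these 4 was 642 in drought leaves and 687 in well-watered leaves. None of the vascular or guard cell markers matched a named probe set. The part of cell composition in the NAC and WRKY differences was not tested. The authors' deposited list of 110 differentially expressed probe sets, out of 24132 on the array, holds 0 of the 12. So short a list would be expected to hold few or none of 12 probe sets, so this count says little about the members.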

How the data were processed

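The values analysed are linear MAS5 intensity signals deposited by the authors, for which the submitters' processing notes name GCOS and MAS5. Versions and the scaling target are not stated there. The authors' deposited list of 110 probe sets, with its detection p-value and signal per array per the file headers, was searched for members only; its detection call (other) was not used. From biotin-labelled cRNA of 5.0 µg total RNA, 1 array per group was available, so no test was run and the number of arrays limits the precision.

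Log2 differences used no pseudocount, with 155 control probe sets left out. Gene names came from the platform annotation matched by gene identifier to the gene table of assembly Gossypium_hirsutum_v2.1 (697 of 697 matched; the 46 with several genes stayed unnamed); its coordinates were not used. Every member is named; from each list up to 4 measurable genes were named by size of difference, at the brightest probe set, and the 2 genes nearest in difference to each member. In the lists a hyphen or letter after the number was allowed. Members and lists were chosen with earlier results of these data known. Alternatives were 5 scalings (lowess span 0.3; pseudocount 26.4, the 25th percentile of signals), filters, 1 probe set per gene, orientation, and thresholds of 1.5-fold and 3-fold. Calculations used Python 3.11.15, pandas 2.3.3 and statsmodels 0.14.6. Only the scalings were run on simulated data, and recovery of the known differences was required for median centring and the spike-in scale alone.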

Additional observations from a re-analysis of the deposited data

How the results depend on the processing

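The count of members higher in drought leaves was 6 of 12 as deposited and 5 or 6 under the 5 scalings. With fewer members kept it was 1 of 3 at the 75th percentile of signal, 4 of 6 for measurable members, 5 of 8 with 1 probe set per gene, 4 of 6 without probe sets ending in _s_at or _x_at, and 5 of 7 without orientation A. The count at least 2-fold higher, 1 as deposited, was 0 against the spike-in controls, with the pseudocount, for measurable members, at the 75th percentile and with 1 probe set per gene. The count at least 2-fold lower, also 1, was 0 for measurable members, at the 75th percentile, with 1 probe set per gene and without probe sets ending in _s_at or _x_at. A threshold of 1.5-fold gave 3 higher and 4 lower, and a threshold of 3-fold gave 0 and 0. The shares of all plant probe sets past 1.5-fold and 3-fold were not computed, so these counts cannot be set against a background. These changes follow from the construction of each filter or threshold. The median difference of -0.05 ranged from -0.30 against the spike-in controls to 0.48 without probe sets ending in _s_at or _x_at. None of the 60 recomputed member values moved by more than the spread between probe sets of the same gene, a wide yardstick for dim probe sets. Median centring and the spike-in scale shift every value by a constant (-0.05 and -0.25). Those shifts are smaller than the SD of 0.434 of measurable pairs, so these values could not have moved past it. No paired analysis was possible because each group has 1 array, and no array could be left out.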
